A study of Mus musculus with 16 samples.

Results

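The genes described here are grouped as genes of the motile cilium, the beating hair-like organelle that ependymal cells carry on the wall of the brain ventricles. Not all of them encode structural parts of it. Members were chosen by symbol: protein-coding genes of the Dnah, Cfap, Rsph, Tekt and Dnaaf families followed by a digit, plus 7 genes listed singly (Foxj1, Tmem212, Dynlrb2, Mia, Tctex1d4, Tsnaxip1 and Lrrc71). There were 70 such genes among the 48795 gene identifiers of the count table, with 15 Dnah, 31 Cfap, 8 Rsph, 5 Tekt and 4 Dnaaf genes beside the 7 single genes. Of these, 68 passed the filter on low counts, and Cfap97d1 and Tekt3 did not, at a mean of 0.0134 and 0.0963 CPM (counts scaled to an equal library total) over the 16 libraries. The families were taken from their symbols. The 7 single genes held ranks 3 to 426 of 20645 tested genes in the ratio of IP over Input, so that contrast is treated as the contrast that chose them and is given below as a description.

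The study compared adult mice carrying CAG-Cas9-EGFP after astrocyte deletion of Crym, which encodes µ-crystallin, with mice of the same line. AAV2/5 injected into the central striatum on both sides delivered guide RNAs under the U6 promoter in every mouse. It also delivered the ribosomal protein Rpl22 with an HA tag (RiboTag) under the astrocyte promoter GfaABC1D. Guides were directed against Crym in the Crym KO group and against GFP in the Control group, which the labels call WT. Ribosome-bound RNA pulled down through the tag is the IP, and RNA of the same striatal lysate is the Input, with 4 libraries each of Control IP, Crym KO IP, Control Input and Crym KO Input from 8 mice. All groups therefore shared the Cas9 line, the virus type and the tagged construct, and the model reads astrocytes as far as the promoter restricts the tag to them.

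The libraries held 39421209 to 62596661 counts. Crym was at 187 ± 43.8 CPM in Control IP and 64.6 ± 12 CPM in Crym KO IP (mean ± SD, n = 4 each), with no overlap (log2 -1.52 ± 0.16 SE, limma-voom with Benjamini-Hochberg adjusted p = 0.000514). The tagged gene was not matched between genotypes: Rpl22 was at 327 ± 31.6 CPM in Control IP and 628 ± 103 CPM in Crym KO IP (log2 0.93, adjusted p = 0.00367), and 90.0 ± 13.4 and 106 ± 13.8 CPM in Input (adjusted p = 0.739). Its part in the results was not tested. Astrocyte markers were high in IP, all 10 with a median log2 ratio over Input of 2.14, while microglial and endothelial markers were depleted, with medians of -4.79 and -3.88. Other cells remained in IP: all 8 medium spiny neuron markers were called higher in IP (median log2 0.54), and oligodendrocyte markers were not depleted as a list (median -0.01, 2 of 6 called higher and 2 lower). The libraries of Control mouse 4 stood apart in choroid plexus genes, whose summed level was 652 CPM in its Input against 14.8 to 19.4 CPM in the other 7 Input libraries, and 182 CPM in its IP against 10.7 to 30.8 CPM. Choroid plexus lies within the ventricles. The summed level of all 70 motile cilium genes in that mouse lay within the range of the other libraries of its groups. The 33 IP-enriched members (defined below) summed to 46.3 CPM in its Input, above the 33.0 to 44.5 CPM of the other Input libraries. A link to the choroid plexus genes was not tested.

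As background, the motile axoneme is a ring of doublet microtubules around a central pair. Dynein heavy chains (Dnah) form the outer and inner arms that slide the doublets, radial spokes (Rsph) pass signals from the central pair to the arms, tektins (Tekt) are filaments inside the doublets, Dnaaf proteins assemble dynein arms in the cytoplasm, and Cfap is a naming series for proteins first tied to cilia and flagella. Foxj1, a forkhead transcription factor, and RFX factors switch on this programme, and in the forebrain the cells that use it in bulk are ependymal cells, which move cerebrospinal fluid. Astrocytes and neurons instead bear a non-motile primary cilium.

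Taken as a sum, the motile cilium genes were at 544 ± 93.7 CPM in Control IP, 514 ± 63.7 CPM in Crym KO IP, 343 ± 11.1 CPM in Control Input and 341 ± 13.6 CPM in Crym KO Input (mean ± SD, n = 4 each). By library the sum was 678, 514, 460 and 525 CPM in Control IP 1 to 4 and 564, 497, 432 and 566 CPM in Crym KO IP 1 to 4. In Input it was 339, 356, 330 and 347 CPM in Control and 354, 322, 342 and 344 CPM in Crym KO. All 8 IP libraries lay above all 8 Input libraries, the genotypes overlapped in both fractions, and the spread was wider in IP, where the highest library was 1.57 times the lowest against 1.11 times in Input. The 5 most abundant members (Cfap36, Cfap97, Cfap20, Foxj1 and Cfap54) weighed heavily in the sum. Without them the means were 297 and 275 CPM in Control and Crym KO IP and 178 and 174 CPM in Input. The highest IP library was then 1.89 times the lowest. In a bulk sample, fewer cells of a type and less RNA per cell cannot be told apart.

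**Figure D1:**
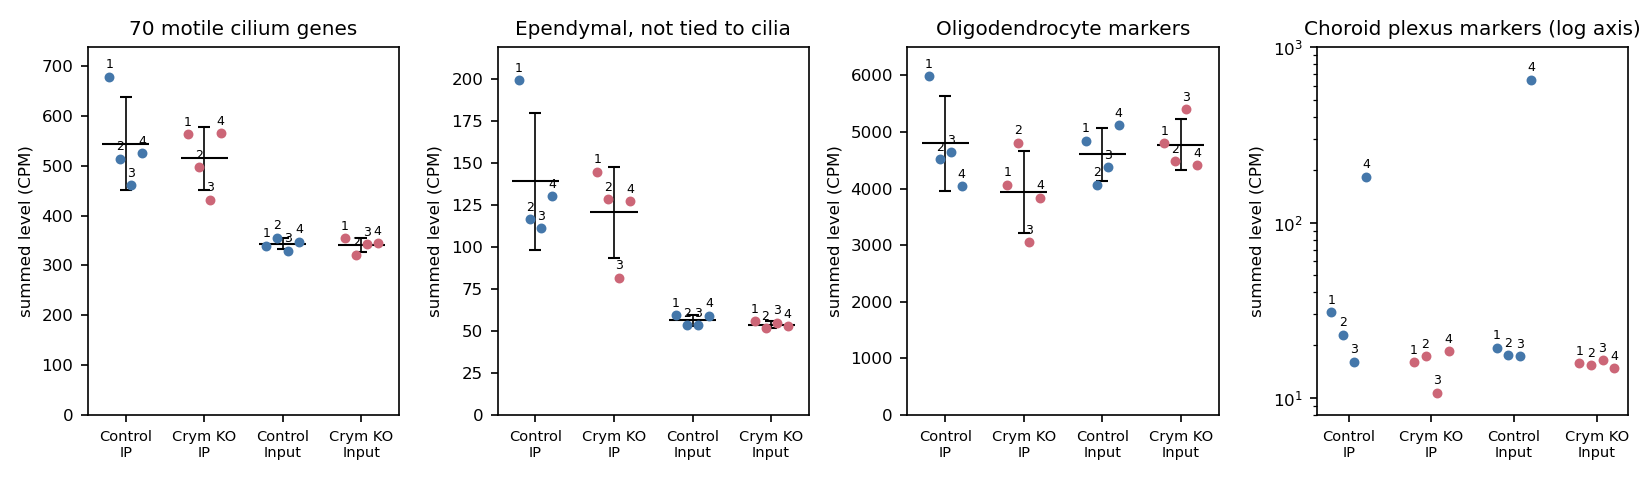
Summed level in CPM (y axis) of the 70 motile cilium genes and of 3 marker lists in each library, by group (x axis). Points are libraries with their replicate number, and lines and bars are the mean and SD of 4 libraries (left out for choroid plexus, which has a log axis). In Control IP 1 the motile cilium genes reach 678 CPM and in Crym KO IP 3 they are at 432 CPM, while the 8 Input libraries lie between 322 and 356 CPM.

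Foxj1 (GRCm38, chr11:116330704-116335399, minus strand) was the most abundant of the singly listed genes. Its level was 72.7, 44.0, 40.9 and 50.3 CPM in Control IP, 48.5, 46.3, 30.0 and 52.0 CPM in Crym KO IP, 11.5, 10.2, 9.16 and 10.6 CPM in Control Input, and 9.64, 8.33, 11.6 and 8.32 CPM in Crym KO Input. Every IP library was above every Input library, as for 27.6% of all tested genes, by a fitted ratio of 4.76-fold. Within each fraction the genotypes overlapped. Crym KO minus Control was log2 -0.23 in IP (95% interval -0.58 to 0.12, adjusted p = 0.780) and -0.13 in Input (-0.69 to 0.43, adjusted p = 0.957).

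The other singly listed genes were far lower. Tmem212, a transmembrane protein gene, was at 10.1, 4.58, 3.07 and 4.78 CPM in Control IP, 6.01, 4.64, 2.41 and 5.2 CPM in Crym KO IP, and 0.511 to 1.14 CPM over the 8 Input libraries. Dynlrb2, a roadblock-type dynein light chain, was at 5.63, 2.81, 1.58 and 2.87 CPM in Control IP, 3.55, 2.37, 1.41 and 2.43 CPM in Crym KO IP, and 0.478 to 0.979 CPM in Input. In both genes replicate 1 was the highest and replicate 3 the lowest library of each genotype in IP. Tctex1d4, of the Tctex1 dynein light chain family, had means of 1.32 and 1.08 CPM in Control and Crym KO IP and 0.144 and 0.166 CPM in Input. Its counts in Input were 0 to 12 reads a library, so its ratio of 8.25-fold rests on few reads. Tsnaxip1, Lrrc71 and Mia had IP means of 0.671 to 1.07 CPM and Input means of 0.138 to 0.247 CPM. Mia encodes a secreted protein best known from cartilage and melanoma, and is not a structural part of the cilium.

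The ratio of IP over Input differed widely among the members. Since this contrast chose some of them, the calls below describe the members and support nothing about them. In the fit across all genes, 52 of 68 members were called higher in IP, where 40.3% of all tested genes were, 6 of 68 were called lower, where 42.3% were, and 10 were neither. A log2 ratio above 1 with an adjusted p under 0.05 (IP-enriched) was reached by 33 members, that is 48.5% of them, beside 7.59% of all genes. Every IP library lay above every Input library for 38 of 68 members (55.9%), beside 27.6% of all genes. The median log2 ratio was 0.96 over the members and -0.02 over all genes tested. By family it was 2.39 for the single genes, 1.08 for Tekt, 0.92 for Cfap, 0.88 for Dnaaf, 0.75 for Dnah and 0.62 for Rsph. With library-size scaling in place of TMM all ratios dropped by 0.19 on the log2 scale, which turned Cfap20, Cfap300, Dnaaf2, Dnah7b and Tekt5 from above to below 0.

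**Figure D2:**
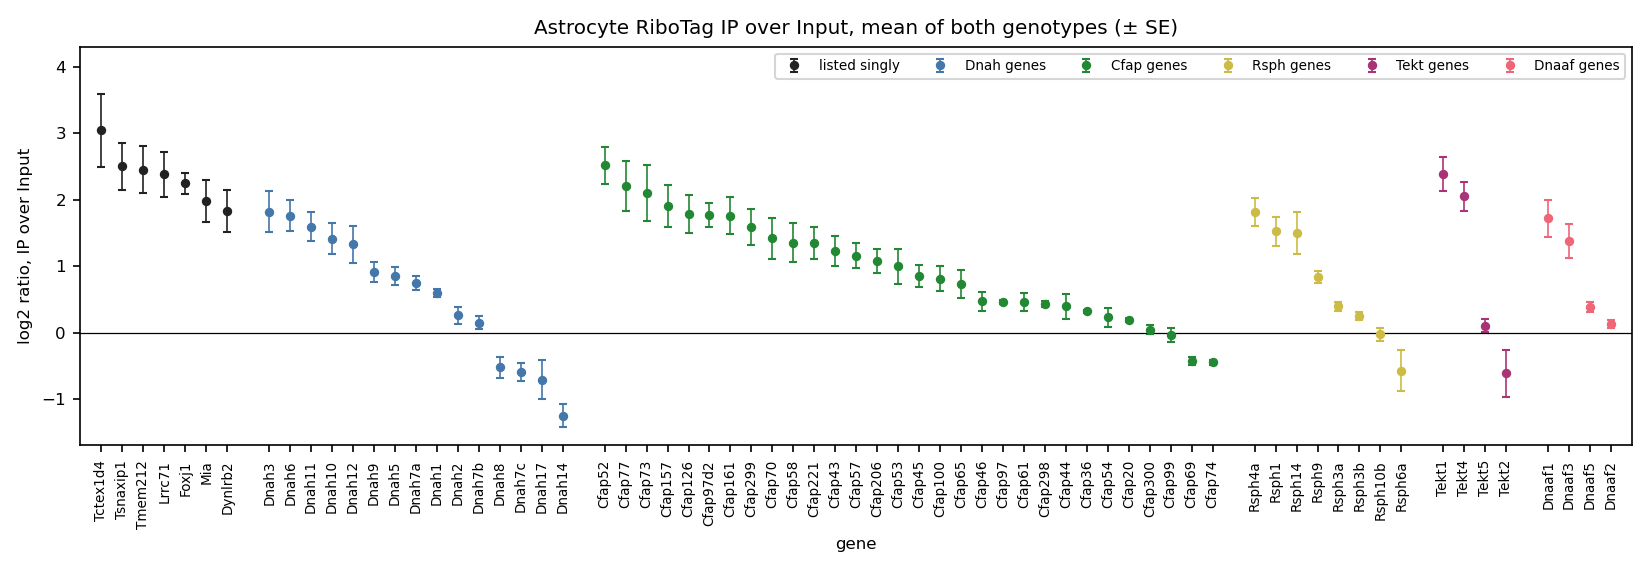
Fitted log2 ratio of IP over Input (y axis) for the 68 tested genes (x axis), by family, as the mean of both genotypes with its standard error. The ratios run from -1.25 for Dnah14 to 3.04 for Tctex1d4, and members of each family lie on both sides of a log2 ratio of 1 except for the single genes, which all lie above it.

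Among the outer arm heavy chains, Dnah5, Dnah9 and Dnah11 had log2 ratios of 0.86, 0.92 and 1.60. Dnah5 was at 24.9, 17.0, 15.9 and 18.5 CPM in Control IP, 22.3, 16, 12.4 and 21.7 CPM in Crym KO IP, 9.03, 11.6, 9.26 and 10.5 CPM in Control Input, and 12.6, 9.83, 8.14 and 9.82 CPM in Crym KO Input. The lowest IP library, at 12.4 CPM, lay just below the highest Input library, at 12.6 CPM, so the fractions overlapped. Dnah8 and Dnah17, their counterparts in sperm, had ratios of -0.52 and -0.71, at 0.758 and 0.333 CPM on average. Of all heavy chains, Dnah1 had the highest level per length, at 1.21 CPM per kb of exon in IP and 0.797 CPM per kb in Input.

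The inner arm heavy chains were split as well. Dnah6 was at 18.2, 10.1, 8.92 and 12 CPM in Control IP, 15.4, 9.93, 6.86 and 16.7 CPM in Crym KO IP, and 2.63 to 4.18 CPM over the Input libraries, a log2 ratio of 1.76 with no overlap of the fractions. Dnah3, Dnah10 and Dnah12 had ratios of 1.82, 1.41 and 1.33, whereas Dnah2 had 0.26. Dnah14 had the lowest ratio of the 68 members (log2 -1.25), with 0.386 to 1.11 CPM in IP and 1.63 to 2.43 CPM in Input. Dnah7a, Dnah7b and Dnah7c, close copies on chromosome 1, had log2 ratios of 0.75, 0.15 and -0.59. Only uniquely placed reads were counted, so how reads of such copies were divided is uncertain.

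Of the 8 radial spoke genes 6 were called higher in IP and 0 lower. The spoke head genes Rsph4a, Rsph1 and Rsph9 had log2 ratios of 1.82, 1.52 and 0.84. Rsph4a was at 22.1, 13.4, 9.01 and 13.3 CPM in Control IP, 15.9, 13.4, 8.62 and 13.2 CPM in Crym KO IP, and 3.01 to 4.81 CPM in Input, with no overlap between the fractions. Rsph6a, the sperm counterpart of Rsph4a, had a ratio of -0.57 from 2 to 16 reads a library. The spoke stalk copies Rsph3a and Rsph3b had ratios of 0.40 and 0.25 and narrow ranges in IP, at 4.60 to 5.5 CPM and 3.05 to 3.66 CPM.

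Tektins differed from each other too. Tekt1 was at 13.5, 7.31, 6.78 and 9.81 CPM in Control IP, 10.3, 8.14, 4.95 and 9.70 CPM in Crym KO IP, 1.38, 1.49, 1.33 and 2.56 CPM in Control Input, and 1.69, 1.31, 1.71 and 1.63 CPM in Crym KO Input. Its ratio was 5.23-fold with no overlap, and Tekt4 had 4.15-fold at lower levels. Tekt5, known from sperm, was at 4.27 to 6.39 CPM in IP and 4.10 to 5.76 CPM in Input, and Tekt2 had 2 to 16 reads a library. Of the assembly factors, Dnaaf1 and Dnaaf3 had log2 ratios of 1.72 and 1.38 at IP means of 0.776 to 1.34 CPM, while Dnaaf5 and Dnaaf2 had 0.39 and 0.13 at IP means of 7.31 to 9.28 CPM.

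The Cfap series held both the most abundant members and some of the most IP-enriched. Cfap36, known to bind the small GTPase Arl3, was the most abundant member at 79.8 to 87.3 CPM in IP and 64.6 to 70.9 CPM in Input. Cfap97 was at 52.3 to 56.9 CPM in IP and 35.9 to 41.0 CPM in Input, and Cfap20, of the inner junction of the doublets, at 37.8 to 41.2 CPM and 33.6 to 36.7 CPM. Cfap298, needed for dynein assembly, was at 14.7 to 17.8 CPM and 11.4 to 12.4 CPM. These 4 genes had log2 ratios of 0.32, 0.46, 0.19 and 0.44. In contrast Cfap52, a protein inside the doublets, was at 7.94, 4.20, 3.11 and 3.99 CPM in Control IP, 5.17, 3.63, 2.66 and 5.18 CPM in Crym KO IP, and 0.549 to 0.915 CPM in Input, a log2 ratio of 2.52. Cfap69 and Cfap74, both of the central apparatus, were lower in IP than in every Input library, with ratios of -0.43 and -0.45.

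Motile cilium genes outside the symbol rule were examined as lists, beside 40.3% of all tested genes called higher in IP and 42.3% lower. Of the central pair genes 8 of 9 were called higher in IP and 1 lower (median log2 1.20), of outer dynein arm and docking genes 7 of 8 and 1 (1.40), of inner arm, ruler and regulatory complex genes 9 of 11 and 0 (0.67), and of dynein preassembly genes 4 of 5 and 0 (0.60). Of regulators of multiciliated cells 7 of 10 were higher and 2 lower (0.42), among them Rfx3 at log2 0.22. Genes shared with the primary cilium had a median of 0.42 over 23 intraflagellar transport genes, 20 of them called higher and 1 lower, and 0.25 over 14 primary cilium genes, 11 and 1. That last count fell to 6 of 14 with library-size scaling.

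Ependymal markers were read beside the label. All 11 markers tied to cilia and all 7 not tied to cilia were called higher in IP, with median log2 ratios of 1.65 and 1.74. Of all tested genes 40.3% were called higher, as were all 10 astrocyte and all 8 medium spiny neuron markers. These calls therefore do not single out ependymal cells. The lists were also chosen with earlier results of these data known, so the calls are a description. Ccdc153, the gene of the first list with the highest IP level, was at 11.9 and 10.1 CPM in Control and Crym KO IP and 2.05 and 2.02 CPM in Input. The markers not tied to cilia summed to 139 ± 40.9 CPM in Control IP, 121 ± 27.2 CPM in Crym KO IP, 56.5 ± 3.29 CPM in Control Input and 53.9 ± 1.97 CPM in Crym KO Input (mean ± SD, n = 4 each). RNA of ependymal markers was thus present in every library. How far the label fits members such as Cfap36, Cfap97, Cfap20 and Cfap298 was not tested. Their levels in IP were within a narrow range in all 8 libraries, while the markers not tied to cilia summed to 81.9 to 200 CPM there.

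The libraries of a group varied more over the members than over all genes tested. The median SD of log2 CPM within a group was 0.42 in IP and 0.22 in Input over the members, against 0.16 and 0.12 over all genes tested. For genes at a mean of 1 to 10 CPM it was 0.42 and 0.20 over 38 members and 0.20 and 0.15 over all 5137 genes at that level. Control IP 1 was the highest IP library for 53 of 68 members (77.9%, beside 22.9% of all genes) and Crym KO IP 3 the lowest for 38 (55.9%, beside 17.6%). Averaged over members, the log2 difference from the group mean was 0.48, -0.05, -0.39 and -0.04 in Control IP 1 to 4 and 0.23, -0.03, -0.40 and 0.20 in Crym KO IP 1 to 4, against -0.13 to 0.12 over the Input libraries. So the replicates numbered 3 were the lowest in IP of both genotypes. In Input replicate 3 was the lowest of Control (-0.13) but not of Crym KO (0.05), where replicate 1 was the highest (0.12), all within a narrower range.

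**Figure D3:**
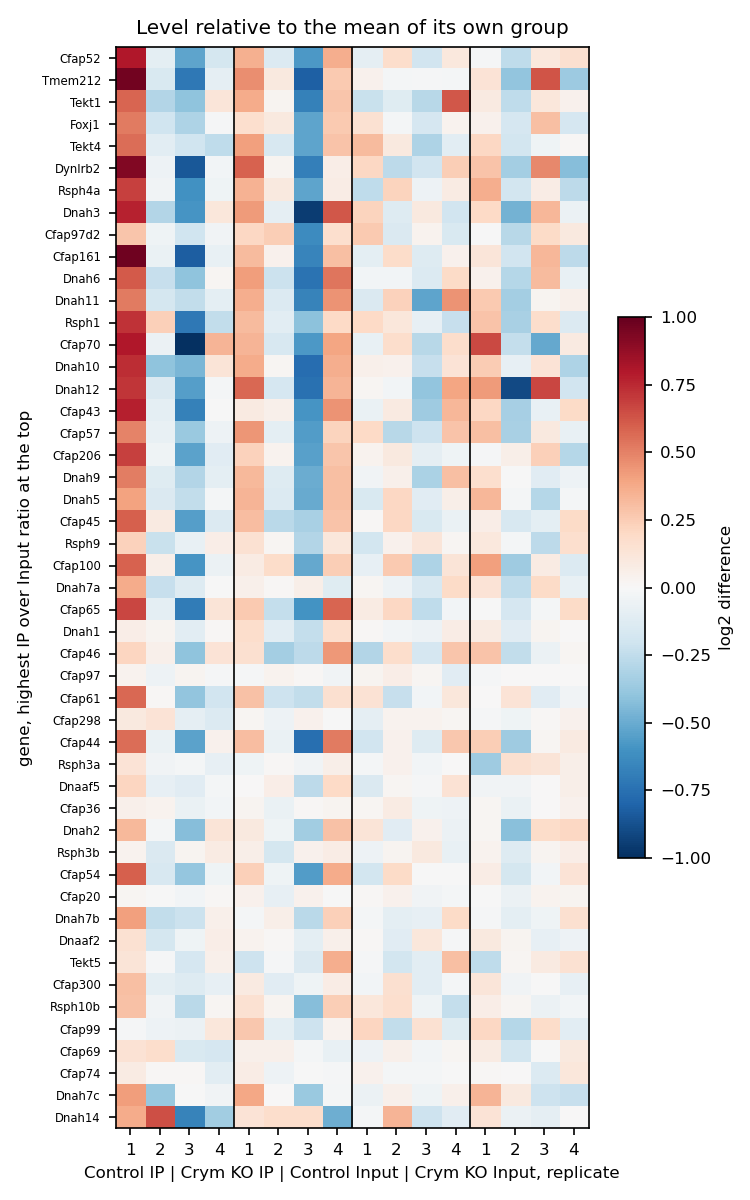
Log2 difference of each gene's level from the mean of its own group (colour) in the 16 libraries (x axis) for the 49 members at a mean of at least 1 CPM (y axis, ordered by IP over Input ratio). Most rows are high in Control IP 1 and low in IP replicate 3 of both genotypes, and the rows of Cfap97, Cfap298, Cfap36 and Cfap20 are nearly flat.

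Other lists moved with this pattern. Control IP 1 was the highest IP library for 11 of 11 ependymal markers tied to cilia and 7 of 7 not tied, and Crym KO IP 3 the lowest for 10 of 11 and 6 of 7. The same held for all 6 oligodendrocyte markers, whose sum was 5984 CPM in Control IP 1 and 3050 CPM in Crym KO IP 3, and between 3837 and 4810 CPM in the other 6. Astrocyte markers did not share it, with 23088 CPM in Control IP 1 and a lowest sum of 17517 CPM in Control IP 2, nor did primary cilium genes, at 530 to 565 CPM over the IP libraries. The part of other cells in the members' variation was not tested.

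As a description of likeness, each gene's log2 CPM, less its group means, was correlated over the 16 libraries with the mean of the other members, which share these libraries and their depth. Of 49 members at a mean of at least 1 CPM, 27 had r above 0.8 and 12 had r below 0.5. The median was 0.88 over the 19 IP-enriched members and 0.68 over the 30 others. Cfap52 had r = 0.97 and Cfap161 r = 0.96, whereas Cfap20 had 0.22, Rsph3a 0.10 and Cfap97 -0.11. Among 15380 genes at that level, the 10 non-members most like the members' mean were 1700088E04Rik (0.96), Iqub (0.95), Ccdc40 (0.95), Hydin (0.94), Zfp474 (0.94), Ccdc33 (0.94), Ccdc81 (0.94), Ccdc153 (0.93), Rgs22 (0.93) and Frmpd2 (0.93). Ccdc40 is part of the ruler that spaces inner arms and Hydin part of the central pair. Ccdc153 was at 20.2 CPM in Control IP 1 and 6.44 CPM in Control IP 3.

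Because many members moved together, their promoters were read for letters that RFX factors and Foxj1 are known to bind. RefSeq windows of 250 bases before to 50 after the start (GRCm38.p6) matched 57 of the 70 members. An arm of the X-box, the site of RFX factors, searched as GTTGCC or its reverse GGCAAC, occurred in 23 of 57 member promoters (40.4%, Wilson 95% interval 28.6% to 53.3%) and in 14.1% of all 27025 genes with a window. It was found in 9 of 25 IP-enriched members and in 14 of 32 others. The forkhead core TGTTTAC or its reverse GTAAACA occurred in 4 of 57 (7.02%) beside 4.05% of all genes.

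A full X-box holds arms that face each other. GTTGC followed after 2 to 5 bases by GCAAC occurred in 10 of 57 members (17.5%), among them the copies Dnah7a, Dnah7b and Dnah7c, and in 0.503% of all genes. The form was chosen after the sequences were seen, so no interval is given. It overlaps the arm searched above where a C follows GTTGC or a G precedes GCAAC. The promoters below show the facing arms in members of unlike ratio, each over 60 bases, 5′ to 3′ on the strand of the gene, with the arms in capitals.
Tekt4 (chr17:25471530-25471589, plus strand, log2 ratio 2.05): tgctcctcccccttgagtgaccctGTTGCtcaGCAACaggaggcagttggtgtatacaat
Dynlrb2 (chr8:116504940-116504999, plus strand, 1.83): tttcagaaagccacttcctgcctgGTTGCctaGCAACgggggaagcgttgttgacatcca
Dnah6 (chr6:73221632-73221691, minus strand, 1.76): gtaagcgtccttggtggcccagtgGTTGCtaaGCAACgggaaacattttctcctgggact
Cfap44 (chr16:44394749-44394808, plus strand, 0.40): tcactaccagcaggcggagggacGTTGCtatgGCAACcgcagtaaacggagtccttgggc
Dnah7a (chr1:53706806-53706865, minus strand, 0.75): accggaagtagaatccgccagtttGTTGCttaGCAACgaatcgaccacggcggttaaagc
Dnah7c (chr1:46425425-46425484, plus strand, -0.59): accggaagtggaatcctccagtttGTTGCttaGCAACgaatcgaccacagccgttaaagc
Tekt2 (chr4:126325682-126325741, minus strand, -0.61): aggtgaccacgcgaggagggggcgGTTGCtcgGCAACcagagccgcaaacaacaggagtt
Tekt1, which ranked high in IP over Input, shows the arms in the reverse order instead, as GGCAAC and then GTTGCC, over 100 bases.
Tekt1 (chr11:72361855-72361954, minus strand, 2.39): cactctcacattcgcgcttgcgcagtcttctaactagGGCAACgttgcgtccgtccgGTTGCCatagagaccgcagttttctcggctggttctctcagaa
The match is a description of letters and not of binding. The facing arms were present at log2 ratios of 1.76 to 2.05 (Tekt4, Dynlrb2 and Dnah6) and at lower ratios. Cfap298, Rsph3b and Dnah7b, not printed, carry them at 0.44, 0.25 and 0.15. Dnah7c and Tekt2 carry them below 0, but Tekt2 had 2 to 16 reads a library and was not called lower in IP. The near-identical windows of Dnah7a, Dnah7b and Dnah7c come from copies of a gene, which were counted separately in both searches. A link of the arms to the ratio was not tested.

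Between genotypes, the question was whether loss of Crym in astrocytes moved these genes. None of the 68 members was called in IP, where 7 of 20645 genes (0.0339%) were, none in Input, where 2 genes (0.00969%) were, and none for the difference of the effects, where 0 genes (0%) were by limma-voom at an adjusted p under 0.05. At an unadjusted p under 0.05 there were 0 members in each comparison, beside 7.67%, 7.07% and 3.41% of all genes. The fit shared the spread of both fractions and members varied less in Input, so its Input tests can miss differences in them. With edgeR and DESeq2, 0 members were called as well, although DESeq2 called 68 genes in IP and 47 in Input. In IP none of the 68 members had all Crym KO libraries above or below all Control libraries, as 2.73% of all genes had. In Input 4 members did (5.88%, beside 5.67% of all genes), namely Cfap126, Cfap53, Dnaaf3 and Tekt4, each lower in Crym KO.

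The median log2 difference, Crym KO minus Control, was -0.11 in IP and -0.07 in Input over the members, with medians near 0 over all genes (0.0039 and -0.00045). In IP 54 of 68 members were lower in Crym KO and 14 higher. That count depended on single libraries: without Control IP 1 it was 22 lower and 46 higher with a median of 0.05, and without Crym KO IP 3, of 69 tested, 25 lower and 44 higher with a median of 0.03. Same-number libraries correlated across genotypes in IP at 0.163 to 0.312, but different numbers reached 0.243. If the numbers are matched, leaving out a single library also unbalances them. With the replicate number as a block it was 55 lower and 13 higher (median -0.12). Leaving out all libraries of a number at a time, it was 40 lower without number 1, 50 without 2, 51 without 3 and 59 without 4, each of 68, with medians of -0.02 to -0.21. None of these fits called a member. Without both libraries of Control mouse 4 it was 57 of 69 lower.

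**Figure D4:**
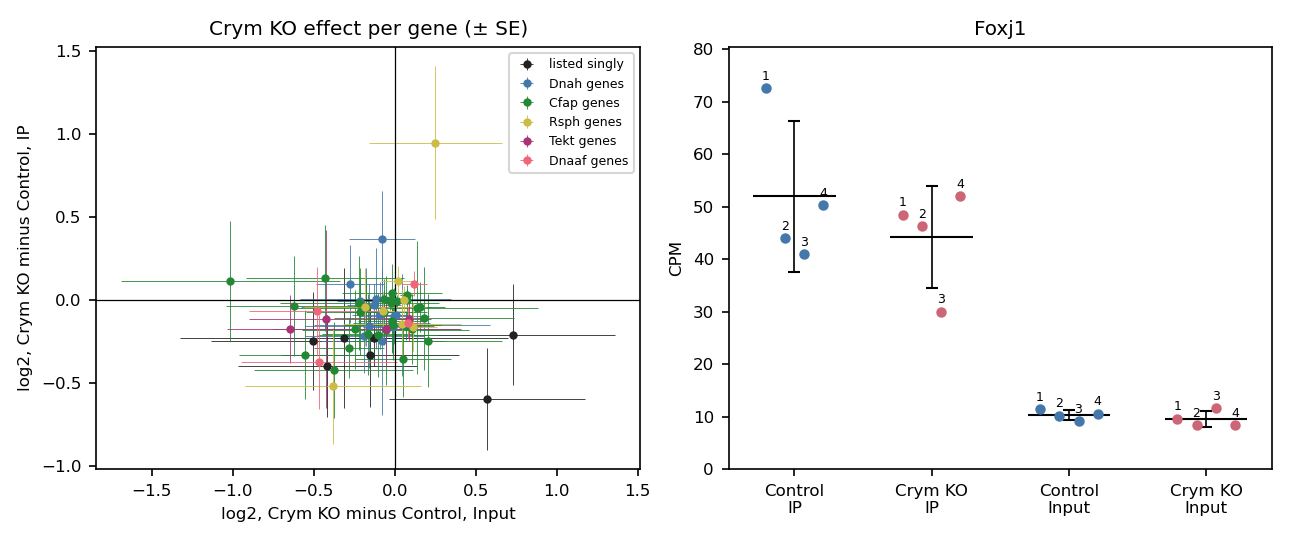
Left, fitted log2 difference of Crym KO minus Control in IP (y axis) against that in Input (x axis) for the 68 tested members, with standard errors. Right, Foxj1 in CPM (y axis) by group (x axis) for each library with its replicate number, with the mean and SD of 4 libraries. No member passed the threshold in either fraction, and the Foxj1 points of both genotypes overlap, at 30.0 to 72.7 CPM in IP.

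The smallest p-values in IP belonged to Rsph6a, Lrrc71 and Cfap69. Rsph6a was at 0.0368, 0.119, 0.0527 and 0.163 CPM in Control IP and 0.195, 0.128, 0.172 and 0.158 CPM in Crym KO IP (log2 0.95, 95% interval -0.02 to 1.92, adjusted p = 0.654), which is 2 to 10 reads a library. Lrrc71, a leucine-rich repeat gene, was at 1.58, 0.851, 0.685 and 1.04 CPM in Control IP and 0.917, 0.584, 0.483 and 0.700 CPM in Crym KO IP (log2 -0.59, -1.24 to 0.05, adjusted p = 0.674). Cfap69 was at 13.7, 14, 11.1 and 11 CPM in Control IP and 11.5, 11.5, 11 and 10.6 CPM in Crym KO IP (log2 -0.16, -0.34 to 0.02, adjusted p = 0.692). In each gene the genotypes overlapped. Compared number by number, Lrrc71 and Cfap69 were lower in Crym KO in 4 of 4 pairs and Rsph6a in 1 of 4. Labels do not link mice across genotypes, so these pairs share a number only. In limma-voom with the number as a block, adjusted p-values were 0.432 for Lrrc71, 0.569 for Cfap69 and 0.586 for Rsph6a.

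In Input the smallest p-values belonged to Cfap97, Tekt4 and Dnaaf2, with log2 differences of 0.08 (95% interval -0.01 to 0.16, adjusted p = 0.739), -0.65 (-1.47 to 0.18, adjusted p = 0.773) and 0.12 (-0.05 to 0.29, adjusted p = 0.803). Tekt4 was at 0.827, 0.696, 0.499 and 0.589 CPM in Control Input and 0.479, 0.341, 0.388 and 0.406 CPM in Crym KO Input, without overlap. For the difference of the effects the smallest were Cfap69, Lrrc71 and Dnaaf5, at log2 -0.23, -1.17 and -0.22, each with an adjusted p of 1.

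For abundant members the intervals were narrow. Cfap36 lay within -0.09 to 0.08 in IP, Cfap20 within -0.09 to 0.06 and Cfap97 within -0.05 to 0.11. For members that varied more between IP libraries they were wide, as for Tmem212 (-0.87 to 0.38), Tekt1 (-0.64 to 0.29), Cfap52 (-0.68 to 0.33) and Dnah6 (-0.54 to 0.46). In these genes a difference of that size could not be told from 0. In exact two-sided permutation tests of the 7 single genes in both fractions, 14 in all, the smallest p was 0.143 (0.760 after adjustment over the 14), for Lrrc71 in IP and Tmem212 in Input, where 4 against 4 libraries allow 0.0286 at best.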

How the data were processed

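RNA-seq of 16 libraries was used. The authors deposited whole-number read counts per gene, made after ribosomal RNA depletion with bcl2fastq 2.17, STAR (mm10) and HTSeq; the gene model (RefSeq in the methods, Ensembl identifiers in the table) and strand setting are uncertain, and 31 of the 70 members share exon bases with another gene. Symbols came from GENCODE (GRCm38), which covered 48435 of 48795 identifiers; the other 360 held 0.0765% of counts.

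The counts were fitted with limma-voom (limma 3.58.1, edgeR 4.0.16, R 4.3.3): 4 group means, TMM, the edgeR expression filter (20645 genes), Benjamini-Hochberg adjustment and a threshold of 0.05. The fit was tested on simulated data. Levels are CPM on TMM-corrected library sizes, with 0.1 CPM added before logs. Intervals are given at a nominal 95%. Alternatives were edgeR quasi-likelihood, DESeq2 1.42.0, other scalings and filters, blocks and leaving out libraries.

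Genes named were the 7 single genes, the 4 highest per family in CPM per kb, the 3 smallest p-values of each Crym KO comparison, the 3 highest and lowest IP ratios and the leading list genes; others named were chosen after their values were seen. Members and lists were chosen with earlier results of these data known.

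Numbers pair IP and Input of a mouse. Deviations from group means, over tested genes, correlated at 0.231 to 0.463 for same-number Control IP and Input, and at 0.0728 to 0.268 for Crym KO, lowest for replicate 3, whose IP correlated more with Crym KO Input 4 (0.181). Across genotypes same-number r was 0.163 to 0.312 in IP (above 0.1 in 4 of 4 pairs, and over autosomal genes in 3 of 4). In Input it was 0.0646 to 0.195. Different numbers reached 0.243 in IP and 0.133 in Input, so the ranges of same and different numbers overlapped. Labels do not link mice across genotypes. Replicates differed by more than sampling noise. In the fit each gene had a single spread shared by IP and Input libraries, which were taken as separate although each mouse gave both. Members varied more in IP than in Input (median SD of log2 CPM 0.42 and 0.22). Their p-values and intervals in IP can thus understate the spread between mice, and those in Input can overstate it.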

Additional observations from a re-analysis of the deposited data

Results flagged for a closer look

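Within groups of 4 libraries, a value was singled out where its gap to the nearest other library exceeded the critical share of the range at the 95% level (Dixon's test). Of 204 group values examined, 11 were, and chance gives about 1 in 20. Choroid plexus markers summed to 652 CPM in Control Input 4, with the other Control Input libraries at 17.3 to 19.4 CPM, and to 182 CPM in Control IP 4, with the others at 16.1 to 30.8 CPM. Astrocyte markers summed to 17517 CPM and subventricular progenitor and neuroblast genes to 118 CPM in Control IP 2, with the others at 23088 to 24149 CPM and 149 to 151 CPM. Tctex1d4 was at 0.483 CPM in Crym KO IP 3 (others 1.23 to 1.37 CPM) and at 0 reads in Crym KO Input 4 (others 0.208 to 0.230 CPM). Tekt1 was at 2.56 CPM in Control Input 4 (others 1.33 to 1.49 CPM). Tekt4 was at 3.36 CPM in Control IP 1 (others 1.87 to 2.09 CPM) and Tekt2 at 0.202 CPM in the same library (others 0.0814 to 0.102 CPM). Tmem212 was at 1.04 CPM in Control Input 1 (others 0.994 to 0.998 CPM), a gap smaller than counting error, and Dnah14 at 0.595 CPM in Crym KO IP 4 (others 0.975 to 1.00 CPM). The causes were not tested.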

How the results depend on the processing

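In every fit tried, with edgeR, DESeq2, other scalings, other filters, the 8 libraries of a fraction alone and each library left out, 0 members were called between genotypes in IP, in Input or for the difference. The replicate block by number gave 0 called members in IP and in Input (43 and 15 genes in all, against 7 and 2 without it), and the replicate block by mouse gave 0 for the difference; the blocks changed no call of a member. Leaving out a library moved the median Crym KO effect in IP between -0.26 and 0.05, and leaving out all 4 libraries of a number, an alternative chosen after seeing the data, between -0.21 and -0.02. Left-out libraries moved Tctex1d4 between -0.49 and 0.13 and Tmem212 between -0.50 and 0.082 in IP, against -0.23 and -0.24 with all libraries; both turned positive without Control IP replicate 1 and without Crym KO IP replicate 3, and Tctex1d4 (0.02) without all libraries numbered 1. Without both libraries of Control mouse 4, an alternative chosen after seeing the data, 61 genes but 0 members were called in IP. The summed level of the members in Control and Crym KO Input was 362.5 and 360.6 CPM with upper-quartile scaling and 369.3 and 361.4 CPM with library size only. Without the 5 most abundant members it was 297 and 275 CPM in Control and Crym KO IP and 178 and 174 CPM in Input. In the last 150 bases before the start, the X-box arm occurred in 26.3% of members (7.61% of all genes) and the forkhead core in 1.75% (2.01%). Upper-quartile scaling and library size only shifted IP over Input by -0.16 and -0.19 for all genes, leaving 48 and 47 of 68 members higher in IP. Of the 68 members, 19 had a mean level under 1 CPM. The causes were not tested.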
